A study of Mus musculus with 14 samples.

Results

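The comparison described here is the difference of 2 differences: the change that efferent duct ligation brought about in the proximal epididymis of knockout mice, minus the change that it brought about in control mice. It is called the interaction below, and a positive value means that a gene's ligated minus sham difference was higher in the knockout. All 14 arrays of the series entered it. They came from 8-week-old mice that were either controls (Ctl) or had Arl13b conditionally knocked out in the Krt5-positive basal cells (cKO). In each mouse 1 epididymis had its efferent ducts ligated (EDL) and the other had a sham operation, and the proximal epididymis was taken 48 h after surgery. Ctl gave 4 sham and 4 EDL arrays and cKO gave 3 of each, numbered 2 to 5 in Ctl and 2 to 4 in cKO. The deletion was directed to basal cells, while RNA was measured in the whole tissue, and the labels give no further detail of the control genotype or of the deleting transgene.

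The efferent ducts carry sperm and testicular fluid into the initial segment, the first part of the epididymis. Ligand signalling from that fluid, relayed in principal cells through receptor tyrosine kinases and the ERK pathway, keeps the initial segment differentiated, and ligation is the classical way to remove it. Basal cells sit under the principal cells and do not usually face the lumen. Arl13b is a small GTPase of the ciliary membrane that is needed for hedgehog signalling through the primary cilium. The design therefore asked whether the loss of ciliary Arl13b in basal cells changes how the tissue answers the loss of luminal input.

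Array values were log2 intensities of 21929 genes with array medians from 6.99 to 7.09, and a level under 5.31, the 95th percentile of olfactory and vomeronasal receptor genes, is called below background here. The targeted gene came first. After sham surgery Arl13b read 7.0, 7.06, 6.87 and 7.46 in Ctl and 7.24, 7.20 and 7.15 in cKO. After ligation it read 7.33, 7.36, 7.60 and 7.42 in Ctl and 7.14, 7.58 and 7.16 in cKO. The cKO levels lay within the range of all Ctl levels over both surgeries, so the arrays did not check the genotype labels. Where the probe set lies relative to the deletion is not known here. The tissue label was borne out by Rnase10, a secreted ribonuclease of initial segment principal cells, which stood between 13.24 and 13.37 in all 7 sham arrays.

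No gene passed the test of the interaction. In a limma model of all 14 arrays, 0 of 21929 genes (0%) had a Benjamini-Hochberg adjusted p under 0.05, and the smallest adjusted p was 0.427. At an unadjusted p under 0.05 there were 899 genes (4.1%), of which 469 (2.14%) were higher and 430 (1.96%) lower in the cKO response. This share lay under the 5% that the threshold itself lets through. It was 5.06% with mouse as a fixed replicate block and 5.34% as a random one. With arrays left out it ran from 3.13% (without both arrays of cKO 2) to 6.58% (without both of cKO 3). With each array centred on its median, 312 were higher and 612 lower, which brought the higher share from 52.2% to 33.8%, so no balance between the directions is read from these counts. The 2 components of the interaction were large by the same test: EDL against sham passed for 1729 genes (7.88%) in Ctl, 3.32% of all genes upward and 4.57% downward, and for 2146 (9.79%) in cKO, 5.04% upward and 4.74% downward. The cKO count was 1063 without cKO sham array 2 and 1305 without cKO EDL array 2, and the 899 became 1388 without cKO EDL array 3. The Ctl count was 1071 without both arrays of Ctl 4 and 788 without both of Ctl 5. Their own p-values, as all others here, measure the spread between these arrays. Within bulk tissue, fewer cells of a type and less RNA per cell cannot be told apart.

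The precision of the arrays limits this null result in a way that can be stated. The median standard error of an interaction was 0.16, so that a gene of that error needed an interaction of about 1.22 on the log2 scale to be the single gene called. The 95% interval of the interaction lay within 1 log2 unit of 0, a 2-fold difference in response, for 21041 genes (96%). It lay within 0.5 for 12488 genes (56.9%). These shares cover all genes, most of which did not pass for ligation. Among genes that passed and rose at least 2-fold, the interval lay within 1 for 18 of 54 (33.3%) in Ctl and 55 of 217 (25.3%) in cKO. Among such falls it did for 179 of 231 (77.5%) in Ctl and 206 of 248 (83.1%) in cKO. A 2-fold difference in response is thus not excluded for most of the genes that rose. Of the 36 genes (0.164%) whose interaction was at least 1 in size, all were positive, their median standard error was 0.69, and 12 had an unadjusted p under 0.05.

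**Figure D1:**
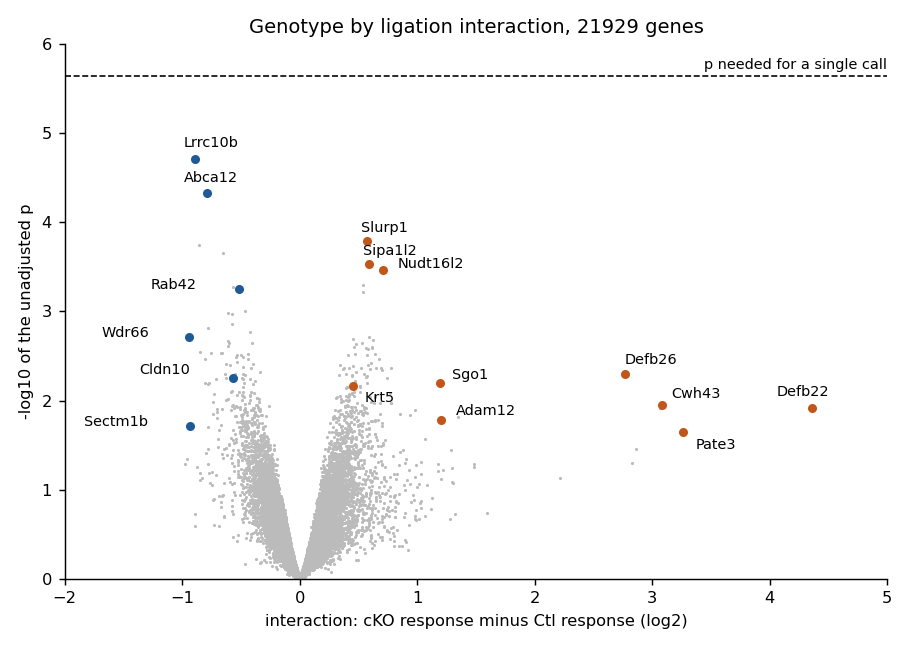
Each grey point is 1 of 21929 genes, with the interaction on the log2 scale (horizontal) against the negative log10 of its unadjusted limma p (vertical). The dashed line is the p of 2.28e-06 that a single gene would need to pass the adjusted threshold, and no gene reached it. Coloured points are genes named in the text, with higher cKO responses in orange and lower ones in blue.

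The ligation responses of both genotypes were alike in the genes that answered most. Across genes the EDL minus sham difference of Ctl correlated with that of cKO at r = 0.83, which describes 21929 genes that are not independent replicates, from groups that share no array. Taken per replicate number, a Ctl difference correlated with a cKO difference at a median of 0.61 over 12 pairs. Differences within Ctl correlated at a median of 0.61 over 6 pairs, and those within cKO at 0.58 over 3 pairs. A difference from the other genotype was thus as close as one from the same genotype.

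Genes that changed at least 2-fold and passed the threshold in 1 genotype were then read in the other. In Ctl 231 such genes fell, and 213 of them (92.2%) also passed in cKO, with the cKO change at a median of 1.01 times the Ctl change. Another 54 rose in Ctl, of which 50 (92.6%) also passed in cKO at a median ratio of 1.19. Chosen in cKO, 248 genes fell and 241 of them (97.2%) also passed in Ctl, at a median ratio of 0.93. Of 217 genes that rose in cKO, 110 (50.7%) also passed in Ctl, at a median ratio of 0.68. The rises carried most of the genes that passed in 1 genotype and not in the other over all arrays, but not without cKO sham array 2. Then 73 genes rose at least 2-fold in cKO, of which 65 (89%) also passed in Ctl, and 41 (66.1%) of 62 that rose in Ctl also passed in cKO. Without Ctl EDL array 4, 67 (30.3%) of 221 cKO rises also passed in Ctl, and 33 genes rose in Ctl, of which 31 also passed in cKO. Without cKO EDL array 2 there were 149 cKO rises, and 95 of them (63.8%) also passed in Ctl.

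**Figure D2:**
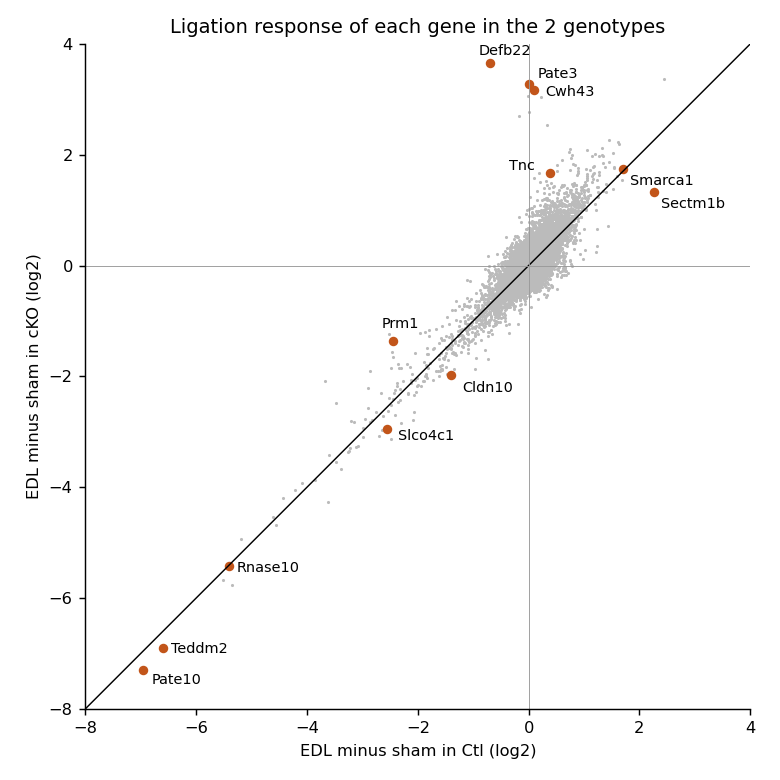
The EDL minus sham difference of each of 21929 genes in Ctl (horizontal, log2) is plotted against that in cKO (vertical, log2), with the line of equal responses. The deepest falls (Pate10, Teddm2, Rnase10) lie close to the line, while Defb22, Pate3 and Cwh43 lie above it.

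The steepest falls shared by both genotypes had nearly the same size in Ctl and cKO. Such falls were chosen for passing in both and ranked by the mean of both responses. Their likeness is thus partly built in and does not count as support for equal responses. Rnase10 read 13.27, 13.24, 13.25 and 13.31 in Ctl sham and 7.63, 7.73, 8.11 and 7.94 in Ctl EDL, against 13.27, 13.37 and 13.28 in cKO sham and 7.61, 7.66 and 8.37 in cKO EDL. It fell by 5.42 in Ctl and by 5.43 in cKO, and the interaction was -0.01 ± 0.22 (SE, 95% interval -0.48 to 0.46). Both sham groups stood together at the top of the scale, and the EDL groups overlapped. Gcnt4, a glycosyltransferase of O-glycans, had an interaction of -0.15 ± 0.23 on falls of 5.52 and 5.67. Pate10, a PATE family protein, fell to below background in both EDL groups, so its interaction of -0.35 ± 0.17 is not a measured difference between 2 measured falls.

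Teddm2, of a family of transmembrane epididymal proteins, read 13.29, 13.17, 13.25 and 13.24 in Ctl sham and 6.54, 6.87, 6.44 and 6.69 in Ctl EDL. In cKO it read 13.43, 13.37 and 13.33 after sham and 6.37, 6.48 and 6.57 after EDL. The fall was thus a little deeper in cKO, by 0.30 ± 0.13 (unadjusted p = 0.041, adjusted p = 0.985), with its sham levels all above the Ctl ones. Slco4c1, an organic anion transporter, had differences of -2.55 in Ctl and -2.96 in cKO, an interaction of -0.41 ± 0.15 (unadjusted p = 0.0156). Those were the 2 of 25 measured initial segment genes with a lower interaction at that threshold, with 0 higher. Over all genes 1.96% were lower and 2.14% higher there. The list's median interaction was -0.01, beside 0.01 over all genes, on median differences of -2.96 in both genotypes. Of its members 18 fell in Ctl and 18 in cKO, beside 4.57% and 4.74% of all genes. Rises numbered 0 in Ctl and 1 in cKO, beside 3.32% and 5.04%.

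The ERK target list, of genes that this kinase pathway induces, did not stand apart either. Of 25 measured members 16 fell in Ctl and 16 in cKO, beside 4.57% and 4.74% of all genes. Rises numbered 0 in Ctl and 2 in cKO, beside 3.32% and 5.04%. None had an unadjusted interaction p under 0.05, and the median interaction was 0.01. Without cKO sham array 2, 16 fell in Ctl and 14 in cKO, 0 rose in either, and 1 had a higher interaction at that threshold. Dusp5, a phosphatase that inactivates ERK, read 10.08, 10.05, 10.16 and 10.20 in Ctl sham, 7.99, 8.36, 8.28 and 8.06 in Ctl EDL, 10.39, 10.21 and 10.27 in cKO sham and 8.24, 8.0 and 8.09 in cKO EDL. Its falls of 1.95 and 2.18 differed by -0.23 ± 0.14. Egr1, an immediate early transcription factor, fell by 1.31 in Ctl and by 0.99 in cKO, an interaction of 0.32 ± 0.18 (unadjusted p = 0.0865). Among the rises, Smarca1, a chromatin remodelling ATPase, had an interaction of 0.04 ± 0.32 on rises of 1.71 and 1.75.

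The smallest p of the interaction belonged to Lrrc10b, a leucine-rich repeat protein. It read 5.36, 5.27, 4.96 and 5.41 in Ctl sham and 5.53, 5.47, 5.73 and 5.55 in Ctl EDL, but 5.53, 5.62 and 5.55 in cKO sham and 4.99, 4.99 and 5.01 in cKO EDL. All 4 Ctl differences were upward and all 3 cKO differences downward, the sham ranges did not overlap, and neither did the EDL ranges. The interaction was -0.89 ± 0.14 (95% interval -1.19 to -0.58, unadjusted p = 1.95e-05, adjusted p = 0.427), with means of 2 groups below background. Counting levels below background as background left -0.48.

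Abca12, a lipid transporter best known from skin, came next at -0.79 ± 0.14 (unadjusted p = 4.73e-05, adjusted p = 0.518). It read 4.77, 5.08, 4.98 and 5.11 in Ctl sham, 5.14, 5.10, 4.92 and 4.92 in Ctl EDL, 5.48, 5.42 and 5.61 in cKO sham and 4.68, 4.71 and 4.86 in cKO EDL. Means of 3 of its 4 groups were below background, and the interaction was -0.19 with such levels set to background. Genes with every group mean below background made up 279 (31%) of the 899 genes at an unadjusted p under 0.05, and 5591 (25.5%) of all genes.

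Above background, Rab42, a small GTPase of the Rab family, fell in both genotypes. It read 7.64, 7.57, 7.70 and 7.81 in Ctl sham and 7.39, 7.18, 7.15 and 7.33 in Ctl EDL, then 7.90, 7.80 and 7.81 in cKO sham and 6.83, 6.92 and 6.95 in cKO EDL. The EDL groups did not overlap, and the fall of 0.94 in cKO was deeper than that of 0.42 in Ctl by 0.52 ± 0.12 (unadjusted p = 0.000566, adjusted p = 0.985). Bet1, a SNARE of transport between endoplasmic reticulum and Golgi, fell by 0.45 in cKO, with a difference of -0.04 in Ctl that did not pass (interaction -0.41 ± 0.11). Eef1akmt1, a lysine methyltransferase of elongation factor eEF1A, had differences of 0.21 in Ctl and -0.25 in cKO, neither past the threshold (interaction -0.46 ± 0.11). Irx3, an Iroquois homeobox factor, rose by 0.29 in Ctl, against -0.14 in cKO (interaction -0.42 ± 0.11).

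Wdr66 and Ttc21a are known from cilia and flagella. Wdr66, a protein associated with radial spokes, read 5.50, 4.78, 5.22 and 5.57 in Ctl sham, 5.64, 5.80, 5.68 and 6.01 in Ctl EDL, 5.83, 5.86 and 5.63 in cKO sham and 5.68, 5.15 and 5.22 in cKO EDL, an interaction of -0.94 ± 0.25 (unadjusted p = 0.00196). The low Ctl sham array 3 and the high cKO sham arrays both entered that value. The Ctl sham mean was below background, and -0.70 was left with such levels set to background. Ttc21a, related to a subunit of intraflagellar transport, fell by 1.05 in cKO beside a difference of -0.20 in Ctl (interaction -0.85 ± 0.24). Tmem212, a membrane protein, read 6.78, 6.26, 6.96 and 7.05 in Ctl sham, 7.01, 7.12, 7.10 and 7.48 in Ctl EDL, 7.08, 6.86 and 7.0 in cKO sham and 6.53, 6.51 and 6.73 in cKO EDL (interaction -0.81 ± 0.23). Its EDL groups did not overlap.

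The list of ciliated cells, which line the efferent ducts next to the initial segment, had a median interaction of -0.17 over 14 measured genes, 3 of them positive, or -0.10 without Ctl sham array 3. Cfap43, an axoneme protein, had the 1 unadjusted p under 0.05 in it (interaction -0.64 ± 0.28, unadjusted p = 0.0351). Rsph4a, a radial spoke head protein, read 7.38, 6.56, 7.38 and 7.81 in Ctl sham and 7.59, 8.28, 8.22 and 8.95 in Ctl EDL, a rise of 0.98 (limma adjusted p = 0.0406). It read 7.42, 6.73 and 7.05 in cKO sham and 7.16, 7.34 and 7.03 in cKO EDL, a difference of 0.11, and the interaction was -0.87 ± 0.42 (unadjusted p = 0.0556). The EDL groups of Rsph4a did not overlap, while the sham groups did. The mean log2 level of the whole list, 2 of whose genes were below background throughout, was 6.59 to 6.86 in Ctl sham, 6.66 to 7.08 in Ctl EDL, 6.51 to 6.73 in cKO sham and 6.53 to 6.68 in cKO EDL. How much efferent duct tissue each sample held was not tested.

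Gria1, an AMPA receptor subunit, closed the group of lower interactions (unadjusted p = 0.00633). It rose by 0.68 in Ctl, beside a difference of -0.09 in cKO (interaction -0.77 ± 0.24).

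Among the higher interactions the smallest p was that of Slurp1, a secreted Ly6 family protein. It read 6.13, 6.40, 6.16 and 6.16 in Ctl sham and 5.85, 5.83, 5.85 and 5.86 in Ctl EDL, a fall of 0.36. It read 6.07, 6.06 and 5.99 in cKO sham and 6.33, 6.28 and 6.14 in cKO EDL, a difference of 0.21 that did not pass. The interaction was 0.57 ± 0.11 (95% interval 0.33 to 0.81, unadjusted p = 0.000163, adjusted p = 0.958), and neither the sham nor the EDL ranges overlapped.

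Sipa1l2, of a family that inactivates Rap GTPases, rose by 0.60 in cKO beside a difference of 0.01 in Ctl. It read 7.27, 7.35, 7.23 and 7.26 in Ctl sham, 7.24, 7.35, 7.36 and 7.21 in Ctl EDL, 6.98, 7.23 and 7.06 in cKO sham and 7.78, 7.51 and 7.77 in cKO EDL. Its interaction was 0.59 ± 0.12 (unadjusted p = 0.000296, adjusted p = 0.985). Nudt16l2, a Nudix family member, fell by 0.71 in Ctl, from 5.79, 5.65, 5.86 and 5.49 to 4.81, 4.92, 5.0 and 5.23, with cKO levels of 5.54, 5.49 and 5.53 after sham and 5.45, 5.64 and 5.46 after EDL (interaction 0.71 ± 0.15). With the Ctl EDL mean below background set to it, 0.39 was left.

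A further group of genes rose in cKO with Ctl differences that did not pass, each from a mean cKO sham level under that of Ctl. Crabp2, a retinoic acid binding protein, read 6.78, 6.90, 6.95 and 6.78 in Ctl sham, 6.99, 7.32, 6.68 and 7.17 in Ctl EDL, 6.27, 6.33 and 6.31 in cKO sham and 7.13, 7.04 and 7.15 in cKO EDL. The 3 cKO sham arrays were the lowest of all 14, and cKO minus Ctl was -0.55 in sham and 0.07 in EDL tissue, so the interaction of 0.62 ± 0.17 (unadjusted p = 0.00249) sat on the sham side. Rdh7, a retinol dehydrogenase, had the same build, with -0.52 in sham, 0.07 in EDL tissue and an interaction of 0.59 ± 0.16. Camkk2, a calcium and calmodulin dependent kinase kinase, split more evenly at -0.34 and 0.29 (interaction 0.63 ± 0.17). The sham component was the larger one in 329 of the 899 genes at an unadjusted p under 0.05, so the EDL component was the larger in most of them. The share over all genes was not taken.

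Others had the larger component in EDL tissue. Ptpn14, a tyrosine phosphatase, read 8.04, 7.90, 7.89 and 8.05 in Ctl sham, 8.13, 8.01, 7.90 and 7.80 in Ctl EDL, 7.69, 7.81 and 7.88 in cKO sham and 8.24, 8.36 and 8.18 in cKO EDL (interaction 0.48 ± 0.13). Ung, the uracil DNA glycosylase of base excision repair, read 6.63, 6.71, 6.77 and 6.25 in Ctl EDL and 7.06, 7.07 and 6.99 in cKO EDL, with overlapping sham groups and an interaction of 0.57 ± 0.16. Pth1r, the parathyroid hormone receptor, had an interaction of 0.61 ± 0.17, and Ttf1, a termination factor of RNA polymerase I, 0.46 ± 0.13. None of these had an adjusted p under 0.985.

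**Figure D3:**
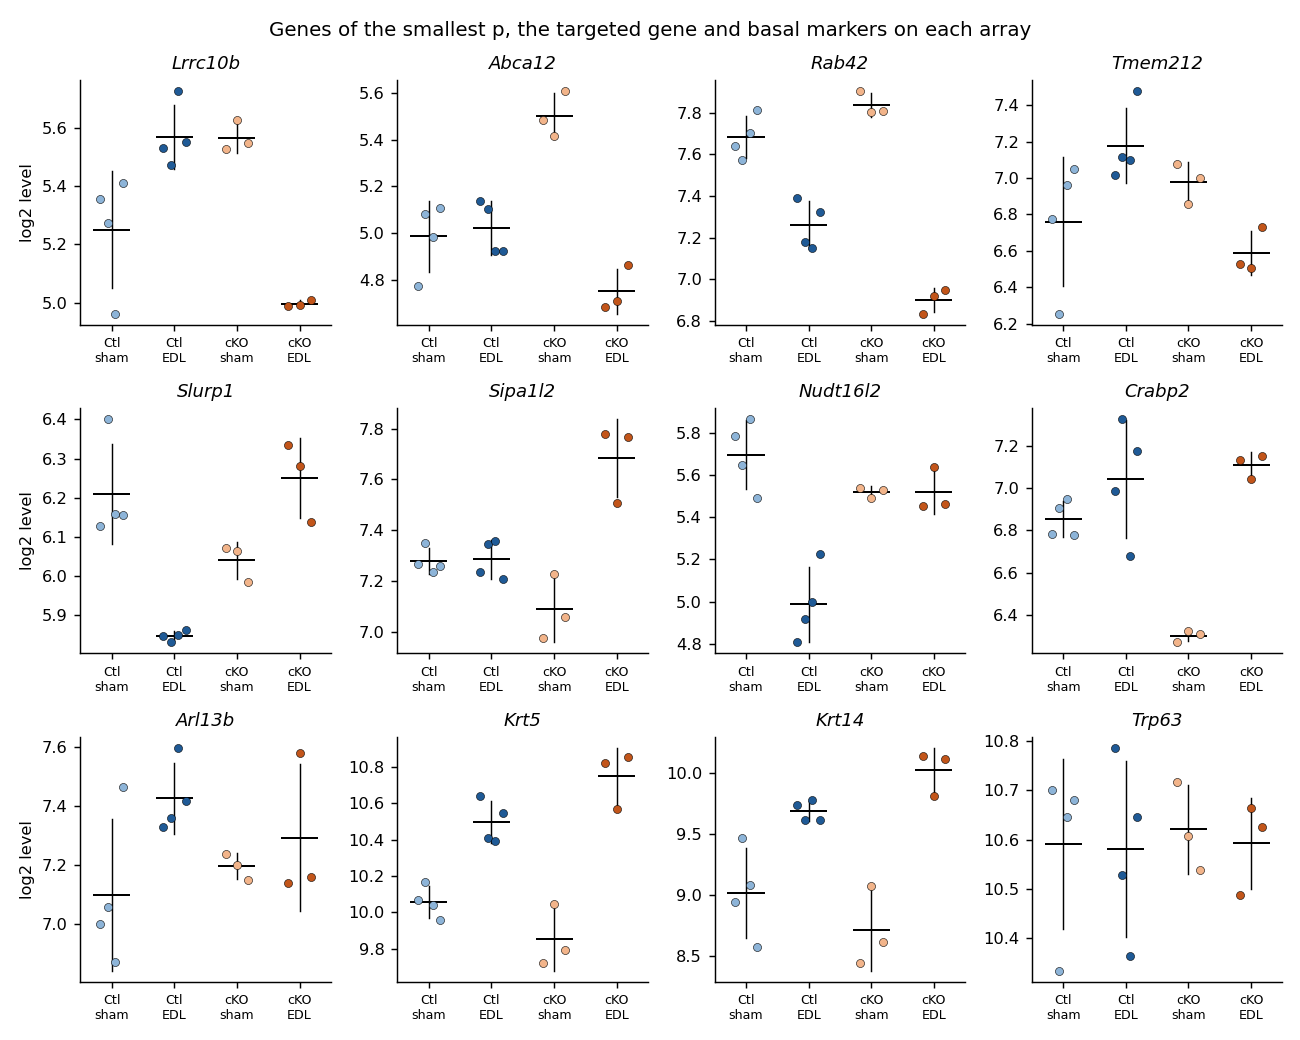
Log2 levels on every array in the 4 groups, with the group mean as a horizontal bar and 1 SD to either side as a vertical line (n = 4 Ctl and 3 cKO arrays per surgery). Each panel has its own scale. Lrrc10b, Abca12, Rab42 and Tmem212 end lowest in cKO EDL. Slurp1 and Nudt16l2 fell in Ctl, while their cKO differences did not pass, and Arl13b and Trp63 overlap between the genotypes.

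Per replicate number, the 3 cKO differences lay all above the 4 Ctl differences in 598 genes (2.73%) and all below them in 641 (2.92%), 1239 in all (5.65%). All 4 Ctl differences were upward and all 3 cKO differences downward in 121 genes (0.552%), and the reverse held in 91 (0.415%). The labels do not state that a number joins the 2 sides of a mouse, so these counts describe the numbering as given.

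Basal cells are where the deletion was directed. Krt5, the basal keratin whose expression defines the targeted cells, read 10.07, 10.16, 10.04 and 9.96 in Ctl sham and 10.64, 10.41, 10.39 and 10.55 in Ctl EDL. It read 9.72, 10.05 and 9.79 in cKO sham and 10.82, 10.57 and 10.86 in cKO EDL. It rose by 0.44 in Ctl and by 0.90 in cKO, an interaction of 0.46 ± 0.14 (95% interval 0.15 to 0.76, unadjusted p = 0.00688, adjusted p = 0.985). Krt5 was lower in cKO after sham (-0.20) and higher after EDL (0.25), with overlap of both pairs of groups.

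Krt14, its partner keratin, rose by 0.67 in Ctl and 1.31 in cKO (interaction 0.64 ± 0.26, unadjusted p = 0.024). Its levels were 8.95, 9.47, 9.08 and 8.58 in Ctl sham, 9.74, 9.62, 9.78 and 9.62 in Ctl EDL, 8.44, 9.08 and 8.62 in cKO sham and 10.14, 9.81 and 10.11 in cKO EDL, where all 3 arrays exceeded every other one. Itga6, an integrin of hemidesmosomes, rose by 0.59 in cKO beside 0.19 in Ctl (interaction 0.41 ± 0.16, unadjusted p = 0.0194). Itgb4 and Lamb3, its integrin partner and a chain of its laminin ligand, were the other members at that threshold, so that 5 of 21 measured basal genes were higher there and 0 lower, beside 2.14% and 1.96% of all genes. Trp63, the transcription factor that specifies basal cells, gave -0.02 ± 0.16 (95% interval -0.36 to 0.32), with levels from 10.33 to 10.79 on all arrays. The list's median interaction was 0.11, or 0.06 without Ctl EDL array 4, and 3 of its genes were below background in every group. Leaving out cKO sham array 2 brought Krt5 to 0.39, Krt14 to 0.51 and the count of 5 higher genes to 2, which was also the count without cKO EDL array 2.

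Cilium and hedgehog genes gave small values. Arl13b itself had an interaction of -0.23 ± 0.19 (95% interval -0.64 to 0.18, unadjusted p = 0.251). Of 40 measured genes of Arl13b and the primary cilium, Inpp5e, the ciliary phosphatase that Arl13b brings into the cilium, was the 1 at an unadjusted p under 0.05. It read 8.42, 8.40, 8.43 and 8.36 in Ctl sham, 8.35, 8.46, 8.46 and 8.44 in Ctl EDL, 8.37, 8.21 and 8.11 in cKO sham and 8.53, 8.41 and 8.59 in cKO EDL, an interaction of 0.26 ± 0.11 (unadjusted p = 0.0338). Its EDL ranges overlapped, and its sham ranges overlapped through a single cKO array. Ift122, of the retrograde transport complex, had -0.25 ± 0.12, and Cep164, of the distal appendages that anchor a cilium, had 0.23 ± 0.12. The list's median was -0.05 with 11 of 40 positive. Of all genes 51.5% were positive and 4.1% had an unadjusted p under 0.05, so the 1 member at that threshold does not set the list apart.

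Gli1 and Ptch1, the 2 classical readouts of hedgehog activity, had interactions of -0.18 ± 0.24 (95% interval -0.69 to 0.33) and -0.11 ± 0.15 (-0.44 to 0.22). Gli1 lay below background in 3 of the 4 groups, which leaves little to compare. Ptch1 read 8.41, 8.06, 8.48 and 8.30 in Ctl sham, 8.49, 8.47, 8.58 and 8.71 in Ctl EDL, 8.42, 8.13 and 8.33 in cKO sham and 8.32, 8.48 and 8.50 in cKO EDL, with all groups overlapping. Gli3, a hedgehog effector that is processed to a repressor, rose by 0.69 in cKO beside 0.21 in Ctl (interaction 0.48 ± 0.26, unadjusted p = 0.0835). The 24 measured hedgehog genes had a median of 0.03. Gli2 was the 1 member at an unadjusted p under 0.05 and was higher, where 4.1% of all genes lay at that threshold and 2.14% were higher.

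The largest interactions belonged to a few genes, most of them for secreted or membrane proteins, and they rested on certain arrays. Defb22, a beta-defensin of the sperm coat, read 10.65, 10.58, 11.20 and 10.87 in Ctl sham, but 6.61, 8.46 and 6.09 in cKO sham. After EDL it read 11.29, 12.29, 5.96 and 10.96 in Ctl and 10.70, 11.04 and 10.38 in cKO. The 3 cKO sham arrays and Ctl EDL array 4 were low, and the other 10 arrays were high. The interaction was 4.36 ± 1.51 (95% interval 1.12 to 7.60, unadjusted p = 0.012, adjusted p = 0.985), made of -3.77 in sham and 0.59 in EDL tissue. Without Ctl EDL array 4 it was 2.97 (unadjusted p = 0.000601), and in that fit too no gene passed the adjusted threshold.

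Pate3, another PATE family protein, showed the same arrays low. It read 9.09, 7.87, 9.43 and 9.64 in Ctl sham, 10.18, 10.61, 5.53 and 9.74 in Ctl EDL, 5.80, 5.49 and 5.64 in cKO sham and 8.86, 9.68 and 8.21 in cKO EDL. Its interaction of 3.27 ± 1.27 became 2.10 without Ctl EDL array 4. The same held for Cwh43, a membrane protein that remodels lipid anchors (3.08, or 2.24 without that array), and for the defensins Defb38 (3.07, or 2.10) and Defb26 (2.76, or 2.18). Ly6f, a GPI-anchored Ly6 protein, gave 1.35 and 1.04, and Cyp4a12a, a fatty acid hydroxylase, 2.86 and 1.82. The unadjusted p without that array was smaller for Pate3 (0.00285, from 0.0223), Cwh43 (0.00641, from 0.0113) and Defb38 (0.000974, from 0.0121). It was also smaller for Defb26 (0.00468, from 0.00507) and Cyp4a12a (0.0226, from 0.0351), but larger for Ly6f (0.0245, from 0.0154). The cKO sham mean of Cyp4a12a was below background, and with such levels set to background its interaction was 1.66 (unadjusted p = 0.121). All but Ly6f were low on the same 4 arrays, so they count as 1 pattern and not as separate support. Ly6f was low in cKO sham, while its level of 7.93 on Ctl EDL array 4 lay within the Ctl sham range.

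The wider list of distal caput, corpus and cauda genes had a median interaction of -0.01 over 25 measured members, of which 11 were positive. Defb26, Defb38, Pate3, Ly6f and Cwh43 were its 5 genes at an unadjusted p under 0.05, all higher. Over all genes 2.14% were higher and 1.96% lower there. Without Ctl EDL array 4 there were 6 higher and 3 lower, with 5.56% of all genes at that threshold. The list's mean log2 level was 9.96 to 10.29 in Ctl sham, 9.99 to 10.18 in cKO EDL and 9.23 to 9.64 in cKO sham, while in Ctl EDL it ran from 10.32 to 10.62 apart from array 4 at 9.50. Of its genes none was below background in every group. How far each dissected piece reached along the duct was not tested.

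**Figure D4:**
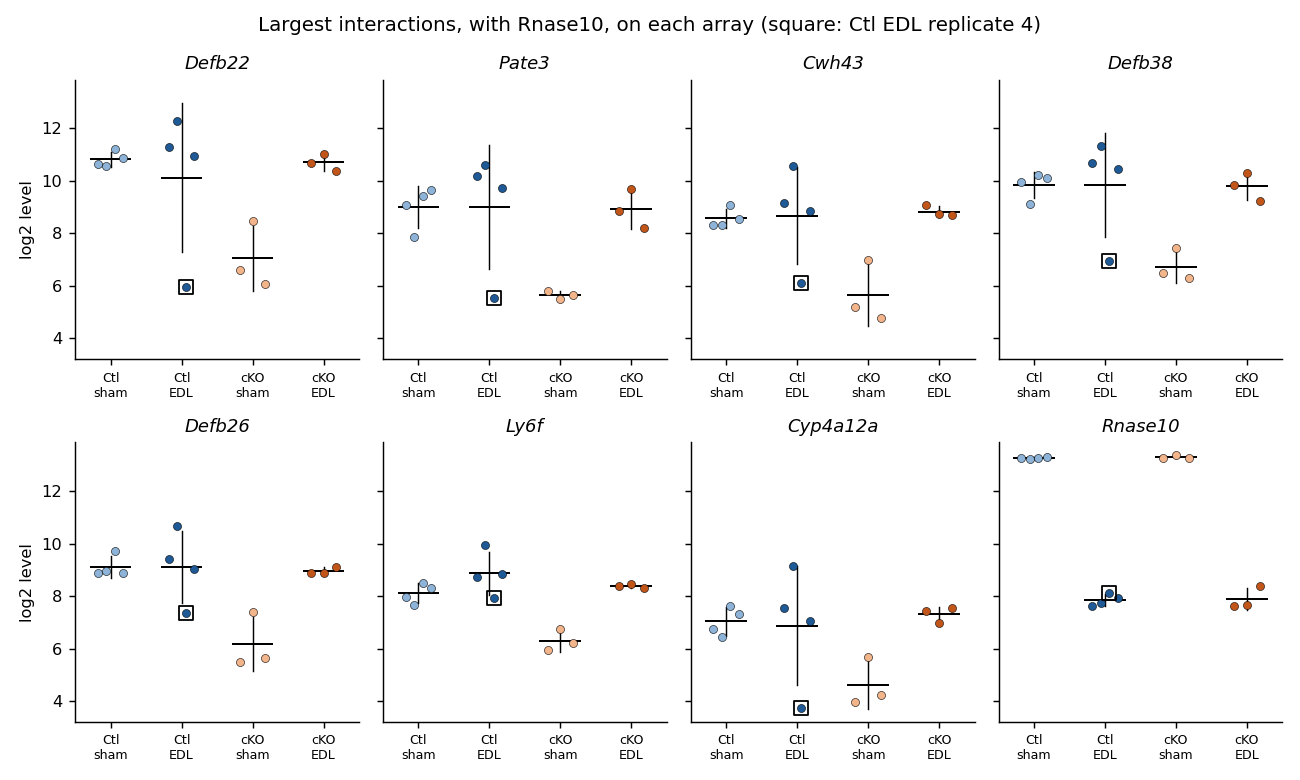
Log2 levels on every array for the 7 genes just described and for Rnase10, on a common scale, with group means (horizontal bars) and 1 SD to either side (vertical lines). The square marks Ctl EDL array 4, which lies with the cKO sham arrays for Defb22, Pate3, Cwh43, Defb38, Defb26 and Cyp4a12a and with the other EDL arrays for Rnase10.

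Connective tissue, vessel and cell cycle genes had positive medians. The 24 fibroblast and matrix genes had a median interaction of 0.53, with 23 positive. Of them 17 rose in cKO and 2 in Ctl, beside 5.04% and 3.32% of all genes, yet Tnc was the 1 member with an unadjusted interaction p under 0.05. Tnc, the matrix protein tenascin C of injured tissue, read 6.38, 7.49, 6.45 and 5.97 in Ctl sham, 6.13, 7.38, 7.35 and 6.98 in Ctl EDL, 5.69, 6.61 and 6.52 in cKO sham and 8.53, 7.21 and 8.09 in cKO EDL (interaction 1.28 ± 0.56, unadjusted p = 0.0363).

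Fn1, fibronectin, read 9.16, 8.97, 8.73 and 7.53 in Ctl sham, 8.59, 9.64, 9.91 and 9.28 in Ctl EDL, 7.21, 8.75 and 7.87 in cKO sham and 10.28, 9.61 and 9.75 in cKO EDL (interaction 1.18 ± 0.58, unadjusted p = 0.0617). Both the low cKO sham array 2 and the high cKO EDL array 2 raised it, and it was 0.81 without the former. The whole list's median fell to 0.15 without cKO sham array 2, whose mean level of these genes, 7.27, was the lowest of all arrays. The other arrays ran from 7.74 to 8.75 in Ctl sham, 8.50 to 9.12 in Ctl EDL, 8.25 and 8.45 in cKO sham and 9.13 to 9.29 in cKO EDL. Postn, periostin of fibroblasts, had 0.57 ± 0.30 with and 0.27 without that array. Without it the counts of risen members turned around, to 11 in Ctl and 2 in cKO, so no order of the genotypes is read from them. Without cKO EDL array 2 they were 2 and 12, and without Ctl EDL array 4 they were 0 and 16.

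The 22 matrix proteases had a median of 0.32, or 0.07 without cKO sham array 2, the lowest, and 0.48 without cKO sham array 3, the highest with 1 array left out. Adam12, a membrane metalloprotease of activated stroma, rose by 1.71 in cKO beside 0.51 in Ctl (interaction 1.21 ± 0.44, unadjusted p = 0.0164, and 0.77 without that array). Its cKO sham mean was below background, and with such levels set to background the interaction was 0.88. Mmp10, a stromelysin, was the other member at that threshold, so that 2 of 22 were higher and 0 lower, beside 2.14% and 1.96% of all genes. The 15 smooth muscle genes had a median of 0.44, or 0.31 without the same array, with 12 positive. At an unadjusted p under 0.05, Mylk, the myosin light chain kinase, was higher (0.38 ± 0.15) and Kcnmb1, a subunit of the large potassium channel, lower (-0.44 ± 0.20). Without Ctl EDL array 4 there were 6 higher and 0 lower, with 5.56% of all genes at that threshold. Without cKO sham array 2 there were 0 higher and 0 lower, and without cKO EDL array 2 there were 1 and 1. Kcnmb1 rose by 0.67 in Ctl, beside 0.23 in cKO. Cnn1, calponin, gave 1.18 ± 0.55 (unadjusted p = 0.0512). Acta1, skeletal actin, which is not in the list and was named for its large interaction, gave 1.07 ± 0.43 (unadjusted p = 0.0271).

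The endothelial list had a median of 0.25 over 16 genes, 15 of them positive, or 0.09 without cKO sham array 2 and 0.38 without cKO sham array 4. Kdr, the main VEGF receptor of endothelium, read 7.78, 8.07, 7.90 and 7.89 in Ctl sham, 7.63, 7.89, 8.25 and 7.93 in Ctl EDL, 7.17, 7.34 and 7.81 in cKO sham and 8.53, 7.87 and 8.27 in cKO EDL. It rose in cKO by 0.78, beside 0.02 in Ctl, an interaction of 0.77 ± 0.25 (unadjusted p = 0.00827), and 0.63 without that array. Flt1, the decoy receptor of VEGF, had 0.52 ± 0.24, and Eng, a TGF-beta co-receptor of vessels, 0.77 ± 0.39, or 0.35 without that array.

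All 31 measured proliferation and DNA replication genes had a positive interaction, with a median of 0.51, and Tk1, thymidine kinase of S phase, was the 1 member at an unadjusted p under 0.05 (0.64 ± 0.21, unadjusted p = 0.00923). The median was 0.30 without Ctl sham array 3, 0.32 without cKO EDL array 2, 0.80 without cKO EDL array 3 and 0.17 without both arrays of cKO 2. The share of positive interactions over all genes was 51.5%, and genes of the cell cycle move together, so 31 of 31 does not count as 31 observations. The list's median EDL minus sham difference was 0.22, -0.52, 1.02 and 0.62 for Ctl numbers 2 to 5 and 1.44, 0.03 and 0.99 for cKO numbers 2 to 4, which overlap. Outside the list, Kif23, a kinesin of cytokinesis, read 6.50, 7.76, 6.33 and 6.81 in Ctl sham, 6.59, 7.09, 7.61 and 7.25 in Ctl EDL, 6.18, 6.72 and 6.03 in cKO sham and 8.02, 6.95 and 7.90 in cKO EDL (interaction 1.03 ± 0.48, unadjusted p = 0.0492). Foxm1, a list member and transcription factor of the G2 phase, gave 0.89 ± 0.48 (unadjusted p = 0.0888). Sgo1, a protector of centromere cohesion that is also outside the list, gave 1.20 ± 0.38 (unadjusted p = 0.00642), with cKO sham below background. Genes from outside the list do not add to its count.

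**Figure D5:**
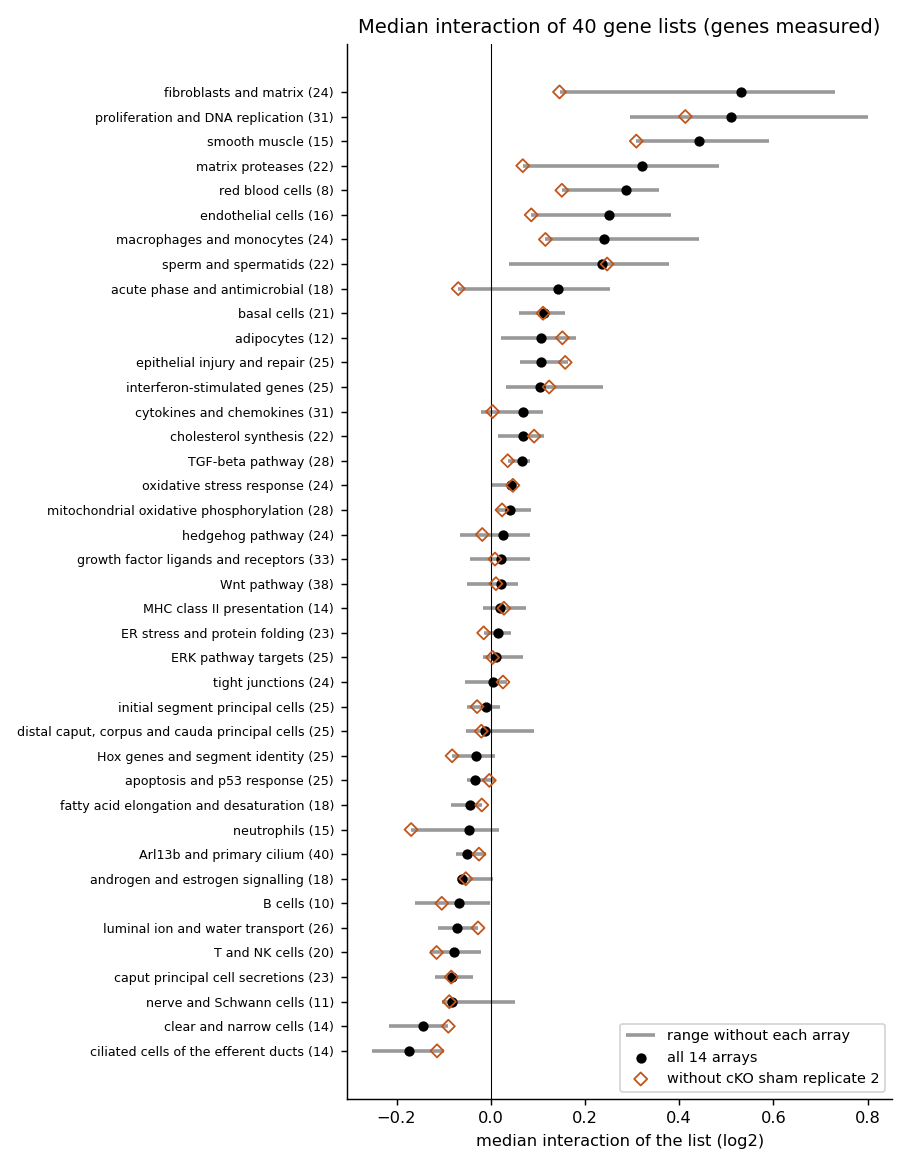
Median interaction (horizontal, log2) of 40 gene lists, with the number of measured genes in brackets, over all 14 arrays (black points), as the range with each array left out in turn (grey bars) and without cKO sham array 2 (orange diamonds). The fibroblast and matrix list goes from 0.53 to 0.15 without that array, and the initial segment and ERK lists stay near 0.

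Growth factor genes gave a median of 0.02 over 33 members. Tgfa, a ligand of the EGF receptor, read 7.81, 8.0, 7.62 and 8.03 in Ctl sham, 7.96, 7.78, 7.83 and 7.79 in Ctl EDL, 7.19, 7.41 and 7.66 in cKO sham and 7.91, 7.86 and 7.95 in cKO EDL. Its interaction of 0.51 ± 0.16 (unadjusted p = 0.00695) was made of -0.44 in sham and 0.07 in EDL tissue. Egfr, its receptor, and Kdr were the other 2 higher members at that threshold, where 2.14% of all genes were higher and 1.96% lower. Fgf10, a mesenchymal ligand, was the 1 lower member (-0.50 ± 0.18, unadjusted p = 0.0146), with 1 group below background.

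Macrophage genes rose with ligation in both genotypes. Of 24 macrophage and monocyte genes, 19 rose in Ctl and 23 in cKO (21 and 16 without cKO sham array 2), and none had an unadjusted interaction p under 0.05. Over all genes 3.32% rose in Ctl and 5.04% in cKO. The median interaction was 0.24, or 0.12 without cKO sham array 2 and 0.44 without cKO sham array 3. C1qb, a complement chain that tissue macrophages make, read 8.92, 9.28, 8.99 and 8.43 in Ctl sham, 9.69, 9.96, 9.88 and 10.11 in Ctl EDL, 8.18, 8.60 and 8.60 in cKO sham and 10.04, 9.75 and 9.93 in cKO EDL. Both EDL groups overlapped near the same level, and the interaction was 0.44 ± 0.24. Mrc1, the mannose receptor, gave 0.52 ± 0.52 with 0.08 left without cKO sham array 2. The mean log2 level of the macrophage list was 7.31 to 8.08 in Ctl sham, 8.38 to 9.02 in Ctl EDL, 7.04 to 7.95 in cKO sham and 8.77 to 8.96 in cKO EDL.

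None of 20 T and NK cell genes or of 10 B cell genes rose in either genotype. Of these genes 12 and 7 were below background in every group, so the 2 lists say little about those cells. Of 15 neutrophil genes 3 rose in Ctl and 1 in cKO, beside 3.32% and 5.04% of all genes. The neutrophil list had a median interaction of -0.05, with 4 positive. Il1b, the cytokine interleukin 1 beta, read 4.75, 5.20, 4.55 and 4.68 in Ctl sham, 5.30, 5.58, 7.22 and 5.97 in Ctl EDL, 4.91, 5.02 and 5.17 in cKO sham and 5.36, 5.25 and 5.25 in cKO EDL. It rose in Ctl by 1.22, with 3 of its groups below background and Ctl EDL array 4 highest, and the interaction was -0.97 ± 0.46 (unadjusted p = 0.0515), or -0.57 without that array. Cxcr2, the chemokine receptor of neutrophils, was at -0.49 ± 0.22 (unadjusted p = 0.0465), or -0.33 without it. S100a8, a calcium-binding protein of neutrophils, had -0.73 ± 0.61. Of the 15 genes 4 were below background in every group, and the list's mean log2 level reached 5.70 to 5.97 in Ctl sham, 5.99 to 6.62 in Ctl EDL, 5.68 to 6.14 in cKO sham and 6.20 to 6.41 in cKO EDL.

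Among other epithelial genes, 2 with large responses had lower interactions. Sectm1b, a secreted or transmembrane protein, read 7.66, 6.58, 7.22 and 6.90 in Ctl sham, 8.80, 9.65, 9.63 and 9.35 in Ctl EDL, 7.47, 7.07 and 6.90 in cKO sham and 8.50, 8.74 and 8.20 in cKO EDL. The EDL groups did not overlap, and rises of 2.27 in Ctl and 1.33 in cKO differed by -0.94 ± 0.35 (unadjusted p = 0.0191, adjusted p = 0.985). Cldn10, a claudin of ion-selective tight junctions, read 9.12, 9.05, 9.11 and 9.15 in Ctl sham, 7.43, 7.71, 7.62 and 8.06 in Ctl EDL, 9.43, 9.39 and 9.27 in cKO sham and 7.22, 7.58 and 7.37 in cKO EDL. All 3 cKO sham arrays stood above the Ctl sham arrays, and falls of 1.41 and 1.97 differed by -0.57 ± 0.17 (unadjusted p = 0.00564). Rspo1, a secreted enhancer of Wnt signalling, rose by 0.61 in Ctl beside 0.10 in cKO (interaction -0.51 ± 0.20), and Hmox1, heme oxygenase of stressed cells and of macrophages, had 1.02 ± 0.55, or 0.40 without cKO EDL array 2. Cxcl1, a neutrophil chemokine, gave 0.46 ± 0.20.

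Sperm and spermatid transcripts, which ligation cuts off, fell in both genotypes, 17 of 22 in Ctl and 13 of 22 in cKO. Over all genes 4.57% fell in Ctl and 4.74% in cKO. The list's median interaction was 0.24, with 17 of 22 positive beside 51.5% of all genes. With each array left out in turn it ran from 0.04 to 0.38. Prm1, the protamine of spermatid nuclei, read 9.61, 9.06, 8.35 and 8.28 in Ctl sham, 5.88, 6.88, 7.40 and 5.33 in Ctl EDL, 8.51, 8.43 and 8.30 in cKO sham and 7.41, 6.63 and 7.09 in cKO EDL (interaction 1.08 ± 0.59, unadjusted p = 0.0879). The EDL groups overlapped. Odf2, an outer dense fibre protein of the sperm tail, gave 0.28 ± 0.12, and Spata18, a protein of mitochondrial quality control, -0.66 ± 0.29. The 2 members of the list at an unadjusted p under 0.05 thus had opposite signs. Without Ctl EDL array 4 there were 6, all higher, with 5.56% of all genes at that threshold. Without cKO sham array 2 there were 0 higher and 0 lower, and without cKO EDL array 2 there were 0 higher and 1 lower. Cholesterol synthesis genes fell likewise, 15 of 22 in Ctl and 13 in cKO, or 8 in cKO without cKO sham array 2. Mvd, a decarboxylase of that pathway, fell by 0.54 in Ctl and by 0.32 in cKO (interaction 0.23 ± 0.11, unadjusted p = 0.0608).

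Over all 40 lists, 25 had a median interaction within 0.1 of 0, 8 had one above 0.2 and none had one below -0.2. The members counted at an unadjusted p under 0.05 in each list stand beside 4.1% of all genes. In 19 lists no member had an unadjusted p under 0.05. These included caput principal cell secretions, fatty acid elongation, ER stress, oxidative stress, interferon-stimulated genes, MHC class II, TGF-beta signalling, androgen and estrogen signalling, luminal ion transport, mitochondrial oxidative phosphorylation and Hox genes.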

How the data were processed

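Total RNA of the proximal epididymis (100 ng per array, biotin label) was hybridised to 14 single-colour arrays of the Clariom S mouse design. The deposited table held log2 intensities of 22206 probe sets between 2.33 and 13.91. RMA, Affymetrix Expression Console and Partek 7.0 are listed, with no order or role, per the submitters' processing notes. A second deposited table of log2 values, up to 19.02, was an alternative, with its normalization not given in the sources used here. The authors' own p-values of EDL against sham, in their deposited table, were under 0.05 after Benjamini-Hochberg adjustment for 1481 probe sets in Ctl and 1675 in cKO. The 14 columns of array values beside them were not used, since identifiers differed in 5825 of 22206 lines.

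The deposited symbols named the probe sets, and 901 were updated among 20452 whose RefSeq accession matched. Of several probe sets of a gene the 1 with the highest mean was used, for 21929 genes, and no filter on low values was used. Background was the 95th percentile (5.31) of 1459 olfactory and vomeronasal receptor genes. All arrays carried 1 scan date.

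Every contrast came, two-sided, from 1 limma model of the 4 group means (10 residual and 4.16 prior degrees of freedom). Values after ± are moderated standard errors and intervals are 95%. The contrast shares arrays with each of its components, so no overlap with them is given. The labels give no statistical method, and mouse did not enter the model, because they do not state that a replicate number marks a mouse. Precision is limited by the number of arrays, which have no depth. The model was checked on simulated data.

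Named genes were the 12 of smallest p and the 12 of largest interaction in each direction, Arl13b, Krt5, Krt14, Trp63, Gli1 and Ptch1, up to 3 genes of smallest p of each of 40 lists and the 5 largest shared falls and rises, all above background in some group and none of them predicted genes; 82 of 167 are reported, and some others are not reported here. Other list members are named only where they make up a count of 5 or fewer and were chosen after their values were seen. Members and lists were chosen with earlier results of these data known.

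Alternatives were mouse as a fixed or random replicate block, a second quantile normalization, centring, the second table, other variance models, array weights, a filter, other choices among probe sets, other thresholds, and fits without each array and without each mouse in turn. Setting low values to background, and leaving out Ctl EDL array 4 with cKO sham array 2, were chosen after seeing the data. Software was limma 3.58.1 in R 4.3.3, and pandas 2.3.3, matplotlib 3.10.9 and numpy 2.4.6 in Python 3.11.15.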

Additional observations from a re-analysis of the deposited data

Results flagged for a closer look

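For 8 genes named above every Ctl difference went 1 way and every cKO difference the other, and in none did the test of the interaction pass. Ctl went up and cKO down for Lrrc10b (interaction -0.89), Wdr66 (-0.94), Tmem212 (-0.81), Irx3 (-0.42) and Eef1akmt1 (-0.46). Ctl went down and cKO up for Slurp1 (0.57), Ung (0.57) and Mylk (0.38). These directions follow the numbering of the arrays, and 121 and 91 of all genes (0.552% and 0.415%) met the same descriptions.

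In 4 of 164 groups of 4 arrays, 1 array stood apart from the other 3 by Dixon's criterion, which chance alone meets in about 1 group in 20. Ctl sham array 3 was the high one for Slurp1 (6.40) and the low one for Trp63 (10.33) and for Rspo1 (7.96). Ctl sham array 4 was the high one for Defb26 (9.72). The low levels of Ctl EDL array 4 in the region-restricted genes did not meet the criterion.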

How the results depend on the processing

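The count of 0 genes past the threshold for the interaction held under every alternative run, with a smallest adjusted p between 0.19 and 0.998, and also at adjusted p under 0.1 and 0.2. The count at an unadjusted p under 0.05 ran from 687 (without both arrays of cKO 2) to 1442 (without both of cKO 3) with arrays left out, and was 1388 without cKO EDL array 3 alone. EDL against sham passed for 788 (without both arrays of Ctl 5) to 1772 genes in Ctl and for 712 (without both of cKO 2) to 2197 in cKO. It was 1071 in Ctl without both arrays of Ctl 4. In cKO it was 1063 without cKO sham array 2, 1305 without cKO EDL array 2, 1075 without both of cKO 4 and 1051 without Ctl EDL array 4 and cKO sham array 2 together. Fewer arrays enter these fits. At adjusted p under 0.2 the counts were 3802 and 4595. The correlation of the responses ran from 0.769 to 0.842 with arrays left out, and was 0.863 both with the filter on low values and with low values set to background, and 0.795 without the 2 arrays together. Non-overlapping differences ran from 2006 to 3725 with arrays left out and were 4368 without the 2 arrays together, since fewer differences overlap less often. As for pairing, deviations of same-numbered arrays correlated at -0.002 to 0.198, and 4 of 7 pairs correlated best with their own number. Mouse as a fixed replicate block left 0 genes past the threshold and 1110 at an unadjusted p under 0.05, and as a random block 0 and 1170, and EDL against sham passed for 1629 and 2090 genes in Ctl and 1955 and 2607 in cKO. Of 2702 values of named genes under alternatives none passed the threshold. Of them 31 moved by at least the pooled SD of the gene's EDL minus sham differences per replicate number. By the same measure for lists, 22 of 1320 list medians moved. The number of arrays limits what can be called. Counts within gene lists and of 2-fold rises were also taken without cKO sham array 2, cKO EDL array 2 or Ctl EDL array 4, a choice made after seeing the data. Some values from these fits are given beside the counts they bear on.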

Other observations

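Lists not described above held a few further values. Interferon-stimulated genes had a median interaction of 0.11 over 25 genes, 21 of them positive, which ran from 0.03 without Ctl sham array 3 to 0.24 without cKO EDL array 3. Acute phase and antimicrobial genes had 0.14 over 18 genes, which became -0.07 without cKO sham array 2 and 0.25 without cKO sham array 3. Clear and narrow cells, the proton-pumping cells of the epithelium, had -0.14 over 14 genes, 3 of them positive, or -0.09 without cKO sham array 2. Atp6v0a4, a subunit of their proton pump, was the 1 gene of that list at an unadjusted p under 0.05. Of the list's genes 3 rose in Ctl and 0 in cKO, beside 3.32% and 5.04% of all genes. T and NK cell genes had -0.08 over 20 genes with 3 positive, and 12 of the 20 were below background in every group. Red blood cell genes had 0.29 over 8 genes, or 0.15 without cKO sham array 2, with Alas2, the first enzyme of heme synthesis in red cell precursors, at an unadjusted p under 0.05.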
